A study of Mus musculus with 23 samples.

Results

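Genes of pericellular proteolysis were followed through the response of mouse macrophages to bacterial lipopolysaccharide (LPS). The 9 genes comprise 4 matrix metalloproteinases (Mmp9, Mmp12, Mmp13 and Mmp14), 3 tissue inhibitors of metalloproteinases (Timp1, Timp2 and Timp3), the urokinase plasminogen activator Plau and its cell surface receptor Plaur. They were chosen by name, as 9 of the 55401 genes in the count table, and all 9 were among the 18083 genes that passed the filter on low counts and were tested. The cells were bone marrow-derived macrophages (BMDMs), which are macrophages grown in culture from marrow cells, of wild-type mice or of mice whose labels give a knock-out of Selenow, the gene of the selenium-containing selenoprotein W. Each genotype was sampled without treatment (0 h) and at 4, 8 and 24 h in 100 ng/ml LPS. RNA-seq was made from 23 libraries in 8 groups, 3 per group except 2 in the labelled knock-out at 24 h, and libraries are named here by the running number in their labels. Libraries 1 to 3, 4 to 6, 7 to 9 and 10 to 12 are wild-type at 0, 4, 8 and 24 h. Libraries 13 to 15, 16 to 18, 19 to 21 and 22 to 23 are the labelled knock-out at the same times.

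Matrix metalloproteinases are zinc-dependent enzymes that are made as inactive precursors and, once active, cleave collagens, elastin and other proteins outside the cell. TIMPs bind the active enzymes and block them, and TIMP2 also helps the membrane-anchored enzyme MMP14 to activate proMMP2 at the cell surface. Urokinase, held at the surface by its receptor, converts plasminogen to plasmin, a protease that degrades fibrin and can activate several metalloproteinase precursors. Macrophages use these enzymes in migration, clearance of matrix and inflammation.

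Levels are given in CPM (a gene's share of the read pairs of a library, after scaling of the library sizes), and changes as log2 fold changes with standard errors (SE) from one edgeR fit over all 23 libraries. A gene was called, and is said to have risen or fallen, where the p-value adjusted over all 18083 genes was under 0.05. Libraries held 39001456 to 41819953 counted read pairs and 21722 to 23575 genes with at least 1 pair, and no 2 libraries were identical. All 8 macrophage markers examined were detected in all 8 groups, with a summed level of 12470 to 27570 CPM per library. Whether the libraries of a group are from different animals or cultures is not stated in the labels, so p-values measure the spread between libraries, which may be technical. Untreated libraries exist only at 0 h, so LPS and time in culture cannot be told apart. In bulk RNA, fewer cells of a type and less RNA per cell cannot be told apart. Selenow was at 32.6% to 63.9% of the wild-type mean of its time in 7 labelled knock-out libraries. Libraries 13, 16, 19 and 22, labelled knock-out, held 87.96%, 98.1%, 82.4% and 102% of it, where the wild-type libraries ranged from 85.3% to 113.5%. Results that rest on them were also computed without them. At 24 h this leaves library 23 alone in the labelled knock-out, and leaving out library 23 leaves 22 alone. P-values given for such fits take their spread from the other groups. Libraries 3, 6, 9, 12, 14, 17, 20 and 23, 1 in each group, form a second library set, which was found in the data and is not in the labels. At each time they were the wild-type and labelled knock-out library whose deviations from their group means correlated best (r = 0.4538 to 0.6106). Links across times were not tested. Fits that use the sets leave less spread between libraries by construction. The other 15 libraries, the first set, include libraries 13, 16, 19 and 22.

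Promoter sequences are shown for the 5 members that rose after LPS at every time in both genotypes. RefSeq's GRCm38.p6 promoter table has an entry for these and for Timp2 and Timp3, 7 of the 9 members. Each stretch holds the 120 bases before an annotated transcription start, 5′ to 3′ on the plus strand, which is the coding strand of all 5 genes. Capitals mark the 7-base AP-1 motif TGANTCA, the binding sequence of Fos and Jun dimers.
Mmp13, chr9:7272394-7272513: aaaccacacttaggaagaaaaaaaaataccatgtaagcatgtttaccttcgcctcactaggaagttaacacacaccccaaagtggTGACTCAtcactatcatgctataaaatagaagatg
Mmp12, second start, chr9:7347254-7347373: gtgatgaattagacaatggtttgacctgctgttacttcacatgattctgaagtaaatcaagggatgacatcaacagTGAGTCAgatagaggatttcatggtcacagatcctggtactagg
Plaur, chr7:24462363-24462482: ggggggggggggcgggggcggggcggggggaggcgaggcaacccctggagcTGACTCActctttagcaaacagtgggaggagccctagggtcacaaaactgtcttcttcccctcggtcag
Mmp14, chr14:54431478-54431597: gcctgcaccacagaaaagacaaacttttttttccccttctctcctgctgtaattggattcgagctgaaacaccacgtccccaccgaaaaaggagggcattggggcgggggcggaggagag
Timp1, chrX:20870046-20870165: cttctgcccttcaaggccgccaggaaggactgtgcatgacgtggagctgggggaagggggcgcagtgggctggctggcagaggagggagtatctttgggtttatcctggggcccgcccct
The motif begins 35 bases before the start of Mmp13, 44 before the second start of Mmp12 and 69 before that of Plaur. Searched on both strands over 250 bases before the start, it was present in 3 of the 8 promoters of the 7 members and in 6.75% of all 32851 promoters. Mmp14 and Timp1 have no such letters in the window, and neither do Timp2, Timp3 and the first start of Mmp12. An NF-kB consensus had no match in the 8 promoters (3.9% of all promoters hold one), and neither did the cyclic AMP response element TGACGTCA (1.55%). An interferon-stimulated response element was matched in the promoter of Mmp13 (2.98% of all promoters). A match describes the letters and was not tested as a binding site.

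Mmp13 encodes collagenase 3, which cleaves fibrillar collagens (chromosome 9, 7272514 to 7283331, plus strand, GRCm38). It was at 9.67 CPM or less in each library without LPS and at 434 CPM or more in all 17 libraries with it. Untreated wild-type libraries 1, 2 and 3 held 4.16, 5.96 and 6.31 CPM. Mmp13 reached 1387, 1574 and 796 CPM in wild-type cells at 4 h, 1216, 1093 and 830.0 CPM at 8 h, and 1483, 1251 and 865 CPM at 24 h. The level was thus as high at 24 h as at 4 h, with library 6, 9 or 12 lowest in its group each time. The log2 fold change against 0 h was 7.84 ± 0.45 at 4 h (SE; adjusted p = 7.96e-11), 7.58 ± 0.45 at 8 h (adjusted p = 1.77e-10) and 7.78 ± 0.45 at 24 h (adjusted p = 2.42e-10). In the labelled knock-out, Mmp13 went from 7.88, 6.84 and 9.67 CPM to 2118, 812 and 2223 CPM at 4 h, 1086, 701 and 1259 CPM at 8 h, and 608 and 434 CPM at 24 h. Both libraries at 24 h lay below every other LPS-treated library of either genotype. The log2 fold changes there were 7.72 ± 0.45, 6.96 ± 0.43 and 6.003 ± 0.43 at 4, 8 and 24 h (adjusted p = 7.6e-11, 3.73e-10 and 6.56e-09).

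Mmp14 encodes MT1-MMP, the membrane-anchored collagenase and activator of proMMP2 (chromosome 14, 54431612 to 54445364, plus strand). Its level peaked at 8 h in both genotypes. In untreated wild-type cells it was at 5.93, 10.5 and 23.1 CPM. It reached 944, 978 and 697 CPM at 4 h, 1753, 1865 and 1886 CPM at 8 h, and 235, 265 and 549 CPM at 24 h. The 4 wild-type groups did not overlap. The rise over 0 h was 6.05 ± 0.49 log2 units at 4 h (adjusted p = 4.86e-09), 7.12 ± 0.52 at 8 h (adjusted p = 1.77e-09) and 4.73 ± 0.46 at 24 h (adjusted p = 1.28e-07). Between 8 and 24 h Mmp14 fell by 2.39 ± 0.42 log2 units (adjusted p = 0.000159). Its further rise from 4 to 8 h was 1.07 ± 0.40 (adjusted p = 0.0345), a call that was lost without any single one of libraries 4 to 9. The labelled knock-out followed the same course, from 7.17, 17.4 and 14.7 CPM to 924, 756 and 1015 CPM at 4 h, 1705, 1871 and 1804 CPM at 8 h, and 317 and 584 CPM at 24 h. Its rises over 0 h were 6.10 ± 0.50, 7.10 ± 0.52 and 5.10 ± 0.49 log2 units (adjusted p = 4.6e-09, 2.14e-09 and 1.91e-07). The drop from 8 to 24 h was -1.99 ± 0.48 (adjusted p = 0.0036), but it was not called without library 22, nor without libraries 13, 16, 19 and 22 (-1.65, adjusted p = 0.0996).

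Mmp12 encodes macrophage elastase (chromosome 9, 7344381 to 7369499, plus strand). It differed from the other metalloproteinases of the 9 genes in having its highest level at 24 h. Wild-type libraries held 20.9, 22.6 and 40.8 CPM at 0 h, 142, 140.1 and 165 CPM at 4 h, 146, 138 and 134 CPM at 8 h, and 2525, 1803 and 999.9 CPM at 24 h. The 4 and 8 h groups overlapped, and the lowest library at 24 h stood above every library of the earlier times. The rise over 0 h was 2.41 ± 0.27 log2 units at 4 h (adjusted p = 3.42e-07), 2.31 at 8 h (adjusted p = 6.6e-07) and 5.98 ± 0.32 at 24 h (adjusted p = 1.16e-10), and from 8 to 24 h it was 3.67 ± 0.29 (adjusted p = 3.84e-08). In the labelled knock-out, Mmp12 was at 44.4, 29.02 and 37.7 CPM at 0 h, 148, 131 and 136 CPM at 4 h, 101.5, 82.5 and 90.8 CPM at 8 h, and 568 and 613 CPM at 24 h. Again 24 h was the highest group, here with no overlap between any 2 of the times. The rises over 0 h were 1.90 ± 0.27, 1.31 ± 0.26 and 4.00 ± 0.30 log2 units (adjusted p = 5.36e-06, 0.000315 and 1.52e-08), and that from 8 to 24 h was 2.69 ± 0.29 (adjusted p = 3.13e-06). Mmp12 shares 157 exon bases with Mmp1b on the opposite strand, which had at most 3 counts in any library.

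Mmp9 encodes gelatinase B, an enzyme of macrophages, neutrophils and osteoclasts that cleaves denatured and basement membrane collagen (chromosome 2, 164940780 to 164955850, plus strand). It was the one metalloproteinase of the 4 that fell. In wild-type cells it was at 4.46, 8.64 and 6.48 CPM untreated, 0.985, 1.30 and 1.01 CPM at 4 h, 2.89, 3.63 and 3.47 CPM at 8 h, and 1.46, 1.38 and 3.64 CPM at 24 h. Every LPS-treated wild-type library lay below every untreated one. The log2 fold changes over 0 h were -2.57 ± 0.37 at 4 h (adjusted p = 7.22e-06), -0.97 ± 0.34 at 8 h (adjusted p = 0.0185, lost without library 2 or without library 7) and -1.60 ± 0.35 at 24 h (adjusted p = 0.000779). From 4 to 8 h Mmp9 rose by 1.60 ± 0.37 log2 units (adjusted p = 0.00179). The labelled knock-out held 12.01, 8.81 and 12.6 CPM untreated, 1.85, 3.355 and 2.22 CPM at 4 h, 5.94, 5.19 and 4.998 CPM at 8 h, and 1.87 and 4.196 CPM at 24 h. Its untreated libraries also stood above all of its LPS-treated ones. The changes over 0 h were -2.17 ± 0.35, -1.05 and -1.88 ± 0.40 log2 units (adjusted p = 2.89e-05, 0.0114 and 0.000941), the last not called without libraries 13, 16, 19 and 22 (-1.35, adjusted p = 0.0668). The rise from 4 to 8 h was 1.12 ± 0.35 (adjusted p = 0.0135), which was lost without library 16 and without those 4 libraries (0.87, adjusted p = 0.123).

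**Figure D1:**
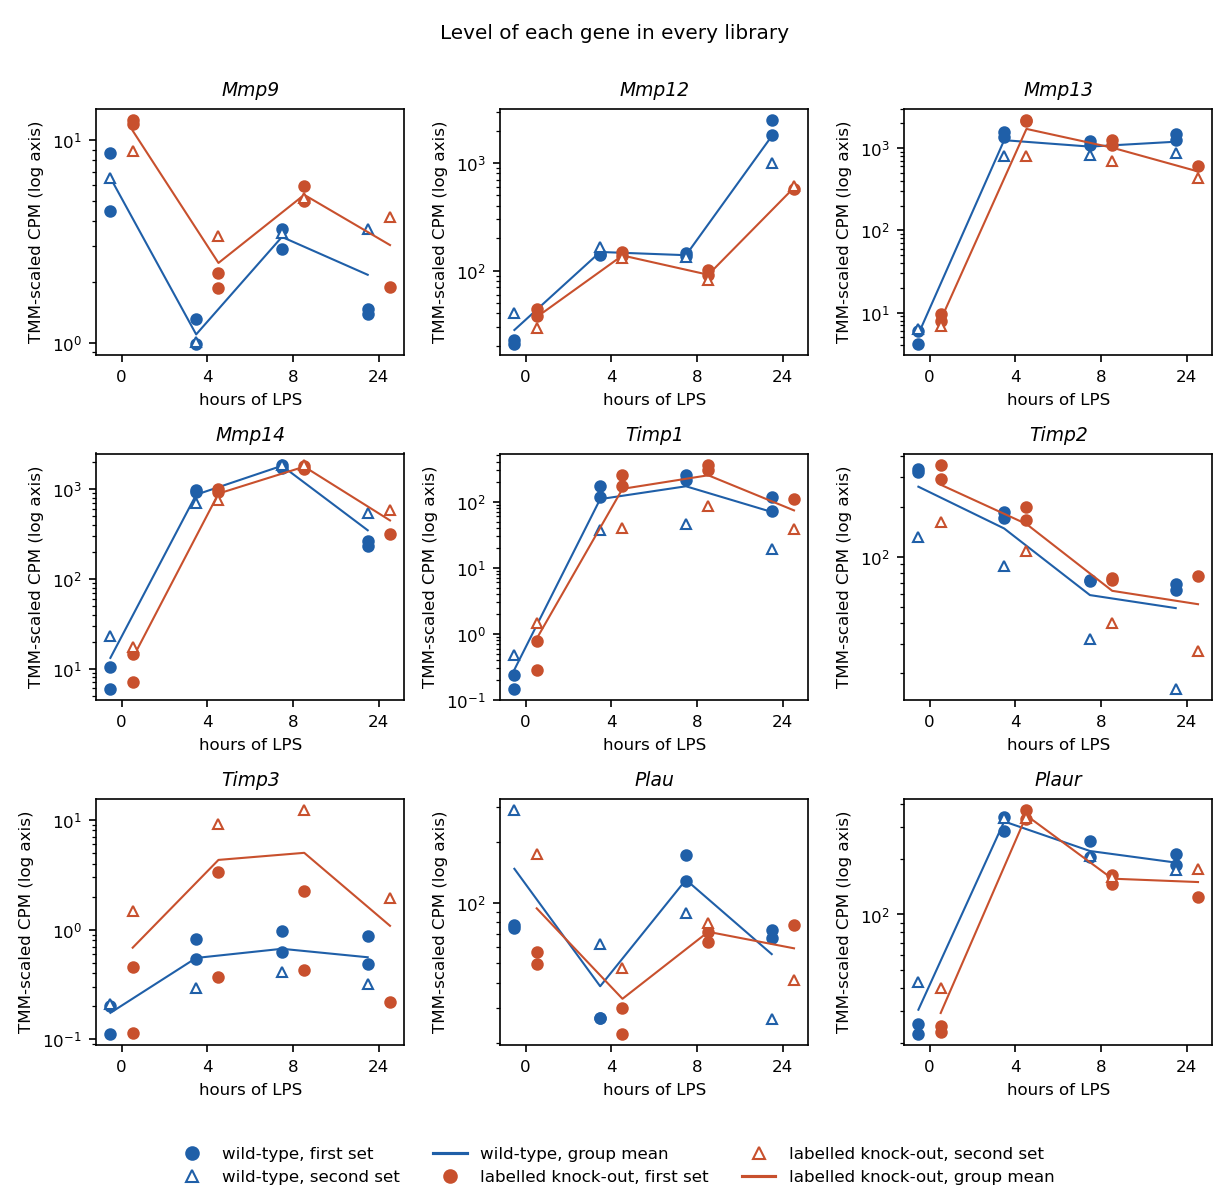
Level of each of the 9 genes in each library, in CPM on a log axis, against hours of LPS; each point is 1 library, coloured by genotype. Mmp13, Mmp14, Timp1 and Plaur are higher in every LPS-treated library than in any untreated one, Mmp12 is highest at 24 h in both genotypes, and Mmp9 and Timp2 are lower after 8 and 24 h in the group means.

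Timp1, the inducible inhibitor of most secreted metalloproteinases (chromosome X, 20870166 to 20874735, plus strand), rose from almost no reads. Untreated wild-type libraries held 0.243, 0.148 and 0.474 CPM. Timp1 was at 171, 119 and 36.7 CPM at 4 h, 254, 213 and 45.1 CPM at 8 h, and 117, 73.0 and 19.5 CPM at 24 h in wild-type cells. Each LPS group lay above all untreated libraries, and libraries 6, 9 and 12 were the lowest of their groups. The rises were 8.57 ± 1.15, 9.21 ± 1.17 and 7.92 ± 1.13 log2 units at 4, 8 and 24 h (adjusted p = 2.88e-06, 1.67e-06 and 1.04e-05) in wild-type cells. Labelled knock-out libraries of Timp1 went from 0.287, 1.47 and 0.788 CPM to 256.5, 40.0 and 171 CPM at 4 h, 303, 86.5 and 361 CPM at 8 h, and 109 and 38.35 CPM at 24 h. There, too, the untreated libraries did not reach any LPS-treated one. The rises were 7.51 ± 1.06, 8.195 ± 1.08 and 6.43 ± 1.04 log2 units (adjusted p = 5.21e-06, 3.19e-06 and 7.03e-05).

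Timp2, the inhibitor that also serves as a partner of MMP14 (chromosome 11, 118301069 to 118355740, minus strand), moved the opposite way. It was at 323, 335 and 131 CPM in untreated wild-type cells, 185.5, 170 and 88.1 CPM at 4 h, 72.1, 72.8 and 32.0 CPM at 8 h, and 68.4, 63.2 and 16.15 CPM at 24 h. All libraries at 8 and 24 h lay below all untreated ones, whereas the 4 h group overlapped with the untreated group. The change was -0.83 ± 0.52 log2 units at 4 h (95% interval -1.915 to 0.2497, adjusted p = 0.169), -2.16 ± 0.54 at 8 h (adjusted p = 0.0017) and -2.42 ± 0.54 at 24 h (adjusted p = 0.000955). Timp2 in the labelled knock-out was at 293, 162 and 356.5 CPM untreated, 166, 108 and 198 CPM at 4 h, 74.9, 39.9 and 72.7 CPM at 8 h, and 76.6 and 27.4 CPM at 24 h. The untreated group stood above both later groups and overlapped with that at 4 h. The changes were -0.78 (95% interval -1.864 to 0.2988, adjusted p = 0.198), -2.11 ± 0.54 (adjusted p = 0.00222) and -2.38 ± 0.63 (adjusted p = 0.00509, lost without library 23). Timp2 also fell from 4 to 8 h, by 1.33 ± 0.52 log2 units in both genotypes (adjusted p = 0.0447 in wild-type and 0.0435 in the labelled knock-out). Within each library set the untreated wild-type libraries stood above those at 4 h, 323 and 335 against 185.5 and 170 CPM in the first and 131 against 88.1 CPM in the second. With a term for the library set, Timp2 was called lower at 4 h in both genotypes, by -0.74 (adjusted p = 1.41e-05) and -0.71 (adjusted p = 2e-05). The sets were found in these same data and the term lowers the spread by construction, so these calls add no support. The calls between 4 and 8 h were near the threshold. Neither was called without libraries 13, 16, 19 and 22 (adjusted p = 0.062 in wild-type and 0.115 in the labelled knock-out). The wild-type one was lost without any single one of libraries 4, 5, 7, 8, 9, 13, 16, 19 or 21, and the other without 5, 13, 16, 18, 19, 20 or 21.

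Timp3, the inhibitor that binds to the extracellular matrix (chromosome 10, 86300372 to 86349506, plus strand), was near the limit of detection in wild-type cells. It held 0.112, 0.203 and 0.2085 CPM untreated, 0.537, 0.828 and 0.291 CPM at 4 h, 0.632, 0.963 and 0.412 CPM at 8 h, and 0.488, 0.871 and 0.322 CPM at 24 h. No wild-type change was called in the fit over all libraries: they were 1.65 at 4 h (95% interval -1.124 to 4.425, adjusted p = 0.289), 1.94 at 8 h (-0.7823 to 4.664, adjusted p = 0.198) and 1.69 at 24 h (-1.022 to 4.402, adjusted p = 0.28). The intervals are wide, although the LPS-treated libraries did not overlap with the untreated ones. In a fit of only the groups compared, the wild-type rises were called at 4, 8 and 24 h (1.75, 2.02 and 1.67; adjusted p = 0.0113, 0.00358 and 0.0212), and that at 8 h was also called without libraries 13, 16, 19 and 22 (adjusted p = 0.0407) and in the first library set (adjusted p = 0.0488). Labelled knock-out libraries of one time were far apart, with 0.115, 1.49 and 0.453 CPM untreated, 0.3705, 9.25 and 3.33 CPM at 4 h, 0.4262, 12.4 and 2.225 CPM at 8 h, and 0.220 and 1.95 CPM at 24 h. Libraries 14, 17, 20 and 23 were the highest of their groups, and libraries 13, 16, 19 and 22 the lowest. Timp3 was called higher at 4 h (2.65 ± 1.06, adjusted p = 0.0366) and 8 h (2.86 ± 1.06, adjusted p = 0.0267), with overlap between the libraries, and not at 24 h (0.64, 95% interval -1.839 to 3.124, adjusted p = 0.698). The call at 4 h was lost without library 13, 15 or 17, with limma-voom (adjusted p = 0.119) and in a fit of only the groups compared (adjusted p = 0.0723). The one at 8 h was lost without library 13, 15 or 20, with limma-voom (adjusted p = 0.125) and in a fit of only the groups compared (adjusted p = 0.0832).

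Timp3 shares 1733 of its 8144 exon bases with Syn3 on the opposite strand, and reads over those bases cannot be told apart because strand was not used in counting. Timp3 had more counts than Syn3 in every library, 460 against 208 in library 20, 342 against 149 in library 17 and 83 against 31 in library 14, so that part of its reads lay outside the shared bases. Among the labelled knock-out libraries, the summed stromal cell markers were also highest in libraries 14, 17, 20 and 23 of their groups. The 9 markers summed to 21.53, 102.1, 90.97 and 36.57 CPM in libraries 14, 17, 20 and 23. Their levels were 2.295 and 5.14 CPM in libraries 13 and 15, 35.6 and 41.4 CPM in 16 and 18, 14.52 and 18.9 CPM in 19 and 21, and 5.97 CPM in 22. Wild-type libraries held 1.835 to 2.067 CPM at 0 h, 28.91 to 41.14 at 4 h, 9.99 to 13.44 at 8 h and 6.015 to 9.49 at 24 h. Most of the sum at 4 h was Pdgfrb, with means of 34.13 CPM in wild-type and 46.24 CPM in the labelled knock-out. Its untreated means were 0.37 and 0.60 CPM. Averaged over times, 6 of the 9 stromal markers were called higher in the labelled knock-out and 0 lower, with a median log2 difference of 2.9. Without libraries 13, 16, 19 and 22 it was 6 of 9 as well (median 3.5), and within the first library set 1 of 7 tested (median 0.738). The markers did not all go the same way. Means of Dcn and Lum were lower in the labelled knock-out at 4, 8 and 24 h. At 24 h they were 2.68 against 4.28 CPM in wild-type cells for Dcn and 0.16 against 0.38 CPM for Lum. The part of stromal cells or of Syn3 reads in the level of Timp3 was not tested.

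Plau, which encodes urokinase (chromosome 14, 20836660 to 20843385, plus strand), was lower at 4 h, and at 8 h the library sets went opposite ways in wild-type cells. Wild-type libraries held 77.3, 74.8 and 290 CPM untreated, 26.6, 26.6 and 61.9 CPM at 4 h, 173, 128 and 88.3 CPM at 8 h, and 73.3, 66.5 and 26.4 CPM at 24 h. Library 3 was far above the other untreated libraries, and all libraries at 4 h and 24 h lay below all untreated ones. Plau fell by 1.94 ± 0.58 log2 units at 4 h (adjusted p = 0.00668), a call lost without library 3, and rose again by 1.76 ± 0.57 from 4 to 8 h (adjusted p = 0.0172), a call lost without library 4, 5 or 7. Against 0 h, the difference was -0.18 ± 0.56 at 8 h (95% interval -1.345 to 0.9825, adjusted p = 0.789), a mean over 1.03 in the first library set and -1.71 in the second. At 24 h it was -1.41 ± 0.57 (adjusted p = 0.0421), which was not called without library 3, 11 or 12, with limma-voom (adjusted p = 0.0621), in a fit of only the groups compared (adjusted p = 0.0956) or without libraries 13, 16, 19 and 22 (adjusted p = 0.0575). The labelled knock-out held 56.5, 175 and 49.7 CPM untreated, 22.2, 47.4 and 30.0 CPM at 4 h, 63.9, 79.4 and 71.3 CPM at 8 h, and 77.1 and 41.4 CPM at 24 h. Library 14 was the high one of the untreated group, and only the 4 h group lay wholly below it. The 4 h change of -1.49 ± 0.57 was called (adjusted p = 0.029; lost without library 14, 16 or 18, and without libraries 13, 16, 19 and 22 with an adjusted p of 0.0909), and those at 8 h (-0.39, 95% interval -1.555 to 0.779, adjusted p = 0.563) and 24 h (-0.66, -1.989 to 0.6675, adjusted p = 0.423) were not.

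Its receptor gene Plaur (chromosome 7, 24462484 to 24475968, plus strand) rose within 4 h and stayed up. In wild-type cells it was at 22.4, 25.4 and 43.15 CPM untreated, 340, 285 and 336 CPM at 4 h, 252, 206 and 207 CPM at 8 h, and 214, 186 and 174.5 CPM at 24 h. The untreated group lay below all others, the 4 h group above all others, and the groups at 8 and 24 h overlapped. The rises over 0 h were 3.40 ± 0.24, 2.87 ± 0.23 and 2.66 ± 0.23 log2 units (adjusted p = 7e-10, 6.34e-09 and 2.95e-08). The labelled knock-out went from 24.6, 39.6 and 23.1 CPM to 330.1, 335 and 371.5 CPM at 4 h, 146, 159 and 164.5 CPM at 8 h, and 124 and 176 CPM at 24 h. Its order of groups was the same. The rises were 3.57 ± 0.24, 2.43 ± 0.23 and 2.37 ± 0.24 log2 units (adjusted p = 4.35e-10, 4.76e-08 and 4.36e-07). From 4 to 8 h Plaur fell in the labelled knock-out by 1.14 ± 0.22 (adjusted p = 0.000308), and without libraries 13, 16, 19 and 22 as well. The wild-type difference was -0.53 ± 0.22 (adjusted p = 0.0503), with no overlap between the libraries. It was called by 15 of 35 alternatives, among them DESeq2 (adjusted p = 0.0414), limma-voom (0.0465), only the groups compared (0.0135) and the library-set term (0.000902). The difference between these falls was not tested.

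As a count over the 9 genes, 7 were called after LPS in wild-type cells at 4 h, 5 higher and 2 lower, where 62.9% of all genes were called (28.2% higher and 34.8% lower). At 8 h it was 7 (5 and 2), where 65.4% of all genes were called (30.3% and 35.1%), and at 24 h 8 (5 and 3), where 55.1% were (27.8% and 27.3%). The 5 that rose were Mmp12, Mmp13, Mmp14, Timp1 and Plaur at each of these times. For the labelled knock-out the counts were 8 at 4 h (6 and 2), beside 62.1% of all genes (28% and 34.1%), 8 at 8 h (6 and 2), beside 60.2% (28.3% and 31.9%), and 7 at 24 h (5 and 2), beside 43.4% (22.6% and 20.8%). The median log2 fold change of the 9 was 2.41, 2.31 and 2.66 in wild-type and 2.65, 2.43 and 2.37 in the labelled knock-out. Over all genes it was -0.123, -0.104 and -0.00143, and -0.103, -0.0891 and -0.000507. Between 4 and 8 h 4 of the 9 were called in each genotype (46.7% and 47.2% of all genes), and between 8 and 24 h 2 were (44.9% and 34.7%), Mmp12 higher and Mmp14 lower in both. Leaving out libraries 13, 16, 19 and 22 left Plaur alone called between 4 and 8 h in the labelled knock-out.

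Without those 4 libraries, the changes over 0 h in the labelled knock-out were as follows at 4, 8 and 24 h. Mmp13 rose by 7.52, 6.89 and 5.72 log2 units, Mmp14 by 5.78, 6.84 and 5.19, and Mmp12 by 1.999, 1.38 and 4.204. Timp1 rose by 6.54, 7.63 and 5.08 and Plaur by 3.49, 2.37 and 2.49. All 15 of these rises were called, with the highest adjusted p at 0.00737 for Timp1 at 24 h. Also called were Mmp9 at 4 and 8 h (-1.94 and -1.07), Timp2 at 8 and 24 h (-2.20 and -3.24) and Timp3 at 4 and 8 h (2.69 and 2.91).

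**Figure D2:**
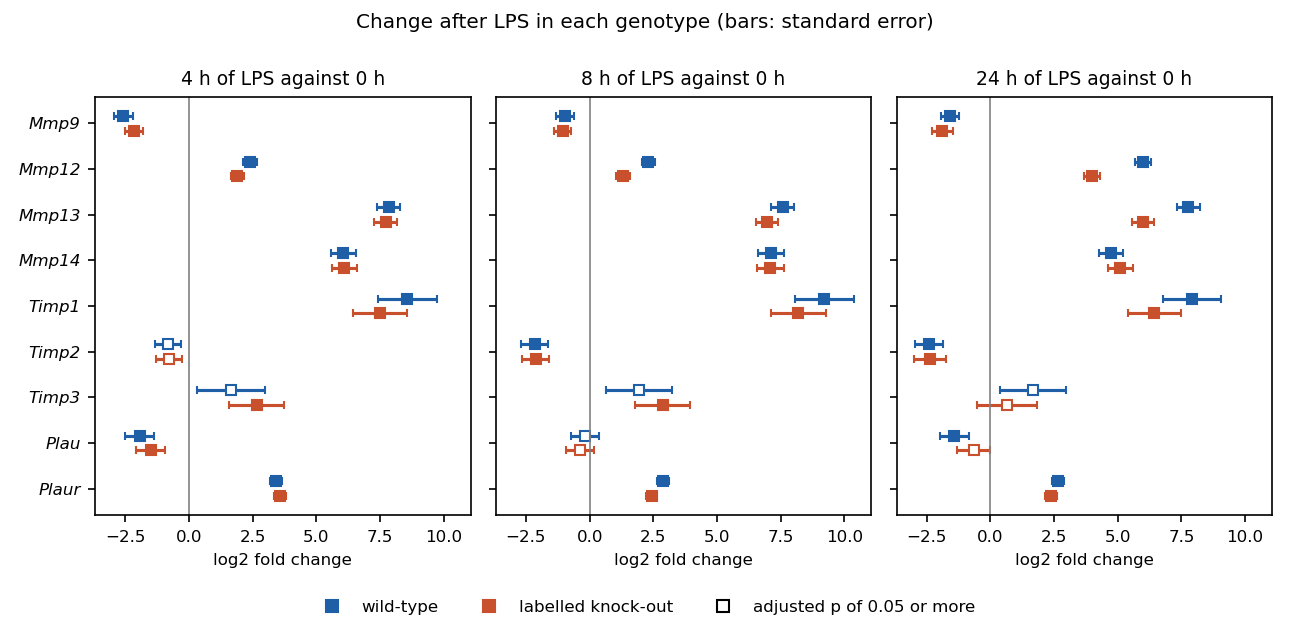
Log2 fold change of each of the 9 genes after 4, 8 and 24 h of LPS against untreated cells of the same genotype, with bars for the standard error. Timp1, Mmp13 and Mmp14 rise by 8.57, 7.84 and 6.05 in wild-type cells at 4 h, and Mmp9 lies below 0 in all 6 comparisons.

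Levels of different genes were compared only per kilobase of exon (CPM per kb). Without LPS, Timp2 was first and Plau second of the 9 genes in both genotypes, with wild-type means of 67.55 ± 29.42 and 62.19 ± 52.09 CPM per kb (SD, n = 3), which do not differ beyond their spread. After LPS, Mmp13 was first in all 6 groups, at 468.5 ± 151.9 CPM per kb in wild-type cells at 4 h. Mmp14 was second at 8 h in both genotypes, Mmp12 was second in wild-type cells at 24 h (245.4 ± 105.4), and Timp3 was last in all 8 groups.

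The make-up of the system therefore turned over with LPS, as described here by sums of CPM per kb over the 4 proteinases and the 3 inhibitors. The proteinase sum was 0.0804 to 0.401 times the inhibitor sum in the 6 untreated libraries. It was 2.9 to 6.84 times that sum at 4 h, 1.85 to 10.9 times at 8 h and 2.53 to 21.2 times at 24 h, so that no LPS-treated library overlapped with an untreated one. Within the inhibitors, Timp1 was 0.193% to 3.81% of the sum in untreated libraries and 61.0% to 87.2%, 86.0% to 95.6% and 83.4% to 88.2% at 4, 8 and 24 h. Timp2 made up most of the rest. Within the proteinases, Mmp12 was the largest share untreated (32.7% to 44.8%) and Mmp13 at 4 h (67.5% to 81.8%). At 8 h Mmp14 took 38.2% to 53.3% beside 44.5% to 59.8% for Mmp13, and at 24 h Mmp12 was back at 21.8% to 37%. Mmp9 went from 13.4% to 25.6% of the untreated sum to at most 0.342% in any LPS-treated library. Receptor over urokinase, Plaur to Plau, was 0.135 to 0.42 untreated, 4.91 to 13.4 at 4 h, 1.32 to 2.12 at 8 h and 1.46 to 5.98 at 24 h. These are ratios of RNA per length and not of protein or enzyme activity.

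**Figure D3:**
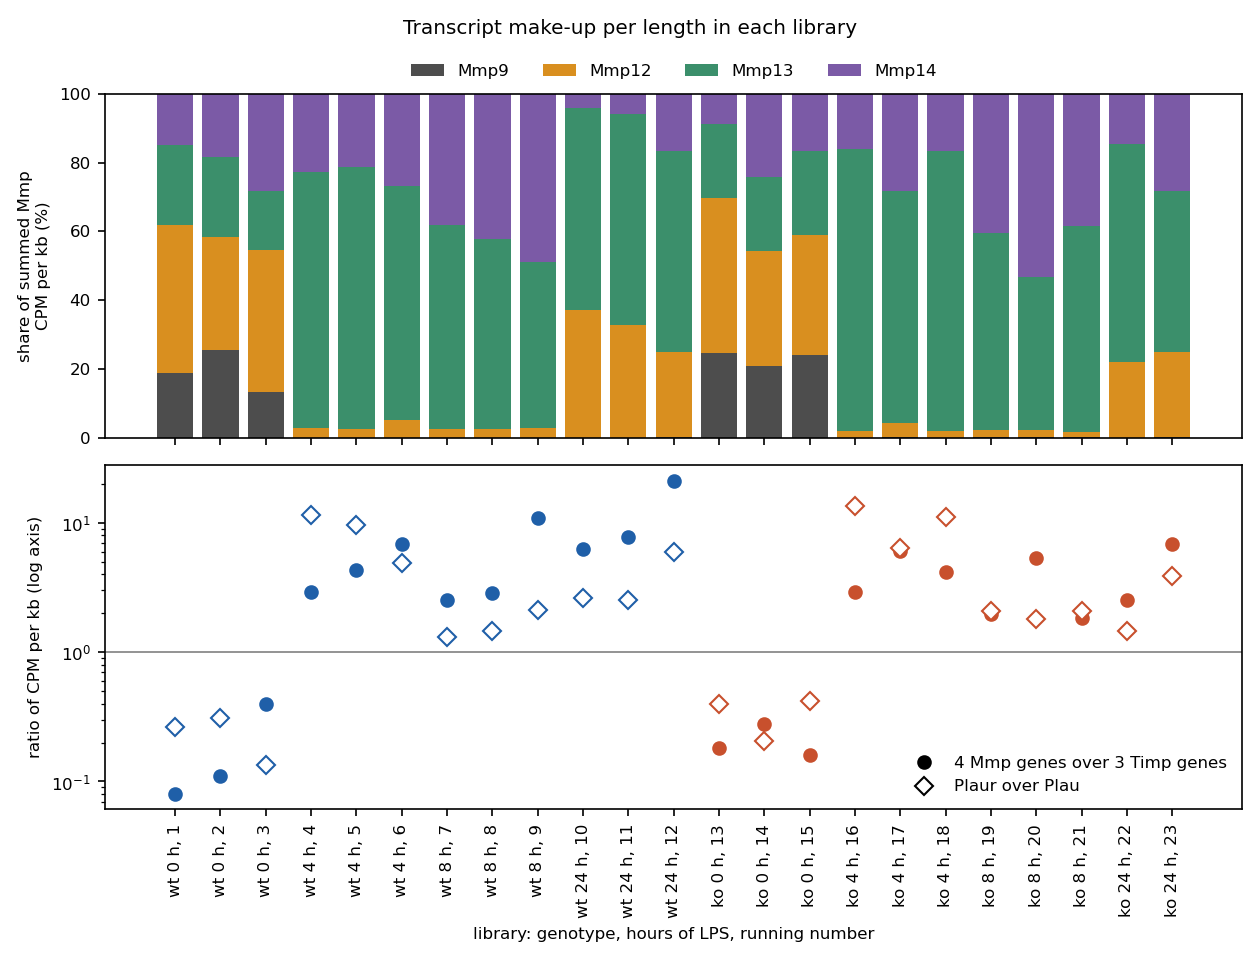
Top, share of Mmp9, Mmp12, Mmp13 and Mmp14 in their summed CPM per kb, for each library. Bottom, that sum divided by the sum over Timp1, Timp2 and Timp3, and Plaur divided by Plau, for each library on a log axis. In both ratios the untreated libraries lie below every LPS-treated library, with a proteinase to inhibitor ratio of 0.0804 to 0.401 against 1.85 to 21.2.

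Between the genotypes, few members differed at a single time. No member was called at 0 h (1.52% of all genes called), 4 h (1.24%) or 8 h (2.2%), and 1 was called at 24 h (1.19%). At an unadjusted p under 0.05, 2211, 1311, 2465 and 2109 genes of the 18083 differed at these times, among them Mmp9 at 0 h, Mmp9 and Timp3 at 4 h, Mmp12, Timp3 and Plaur at 8 h, and Mmp12 and Mmp13 at 24 h. DESeq2 and limma-voom also called 0 of the 9 genes at 0, 4 and 8 h and 1 at 24 h. The gene called at 24 h was Mmp12, which was 3.007-fold lower in the labelled knock-out (log2 -1.59 ± 0.31, 95% interval -2.229 to -0.9478, adjusted p = 0.00829). Its libraries at 568 and 613 CPM did not overlap with the wild-type ones at 999.9 to 2525 CPM. The value kept its size while the call depended on the setting: it was -1.53 without library 22 (adjusted p = 0.153), -1.65 without library 23 (adjusted p = 0.0935), -1.53 without libraries 13, 16, 19 and 22 (adjusted p = 0.294) and -1.60 in a fit of only these groups (adjusted p = 0.361). DESeq2 gave an adjusted p of 1.57e-05. At 8 h the difference in Mmp12 was -0.60 ± 0.26 (adjusted p = 0.301), without overlap between the libraries. The change of Mmp12 from 0 to 24 h differed between the genotypes by -1.99 ± 0.40 log2 units (unadjusted p = 8.56e-05, adjusted p = 0.103). This interaction was called without library 3 (adjusted p = 0.0341) or library 12 (adjusted p = 0.0145), with no filter on low counts (adjusted p = 0.0332) and in DESeq2 (-2.00, adjusted p = 0.000634), and it was -1.78 with an adjusted p of 1 without libraries 13, 16, 19 and 22.

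Mmp13 was also lower in both labelled knock-out libraries at 24 h than in any wild-type library, by -1.20 ± 0.39 log2 units, which was not called (unadjusted p = 0.00587, adjusted p = 0.177; -1.47 without libraries 13, 16, 19 and 22). Its interaction at 24 h was -1.77 ± 0.52 (adjusted p = 0.3). None of the 9 genes was called for an interaction at 4, 8 or 24 h, where 0.0442%, 0.0442% and 0% of all genes were, and 714, 2045 and 1835 genes had an unadjusted p under 0.05, Mmp12 among them at 8 h and Mmp12 and Mmp13 at 24 h. For these interactions limma-voom called 0 of the 9 genes at each time, and DESeq2 called 0 at 4 and 8 h and Mmp12 at 24 h. At 0 h the groups did not overlap (0.57, adjusted p = 0.561), and at 4 and 8 h the Mmp13 levels of the genotypes did.

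Mmp9 was higher in the labelled knock-out in every library at 0, 4 and 8 h than in any wild-type library of the same time. The differences were 0.77 ± 0.33 (adjusted p = 0.343), 1.18 ± 0.38 (adjusted p = 0.242) and 0.69 (adjusted p = 0.391), and at 24 h, where the groups overlapped, 0.49 (95% interval -0.3217 to 1.304). Averaged over the 4 times Mmp9 was called, at 0.78 ± 0.18 log2 units (adjusted p = 0.011), and this call was lost without library 23. It was 0.91 without libraries 13, 16, 19 and 22 (adjusted p = 0.0155). A list of 10 neutrophil markers, 9 of them tested, moved in the same direction. It summed to 102.4 to 121 CPM in untreated wild-type and 179.6 to 184.8 in untreated labelled knock-out libraries, 71.41 to 90.71 against 121 to 156.3 at 4 h, 49.3 to 64.64 against 64.57 to 91.29 at 8 h, and 6.07 to 8.505 against 17.51 to 19.63 at 24 h. Of the 9 markers, 6 were called higher and 0 lower on average over times (median 0.726, against 0.00368 over all genes), or 5 without libraries 13, 16, 19 and 22 (median 0.702), and Ly6g, which defines mouse neutrophils, was too low to be tested. The part of such cells in the level of Mmp9 was not tested.

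On average over the times 3 of the 9 members were called, where 6.27% of all genes were: Mmp9, Timp3 and Mmp12. Timp3 was higher by 2.20 ± 0.58 log2 units (adjusted p = 0.0277). That call was lost without library 1, 6, 7, 14, 17, 20 or 23, and limma-voom gave 1.42 (adjusted p = 0.355), while it was 2.81 without libraries 13, 16, 19 and 22 (adjusted p = 0.000309). Mmp12 was lower by -0.48 ± 0.13 (adjusted p = 0.0401), which was lost in 19 of the 23 fits that each left out a single library; it held without library 1, 2, 12 or 13, and it was not called with limma-voom (-0.44, adjusted p = 0.0534) or without libraries 13, 16, 19 and 22 (-0.53, adjusted p = 0.142). The other 6 were not called. Their averages were -0.06 for Mmp13 (95% interval -0.4178 to 0.3072), 0.09 for Mmp14 (-0.3367 to 0.5204), 0.68 for Timp1 (-0.2672 to 1.626), 0.07 for Timp2 (-0.4826 to 0.6278), -0.41 for Plau (-1.011 to 0.1988) and -0.20 for Plaur (-0.4348 to 0.03335). The narrowest of these is that of Plaur. At 8 h Plaur and Plau were lower in every labelled knock-out library than in any wild-type one, by -0.50 ± 0.22 (adjusted p = 0.303) and -0.86 (adjusted p = 0.545). Without libraries 13, 16, 19 and 22, Timp3 was called higher at 4 h (3.52, adjusted p = 0.0278) and 8 h (3.45, adjusted p = 0.0259).

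**Figure D4:**
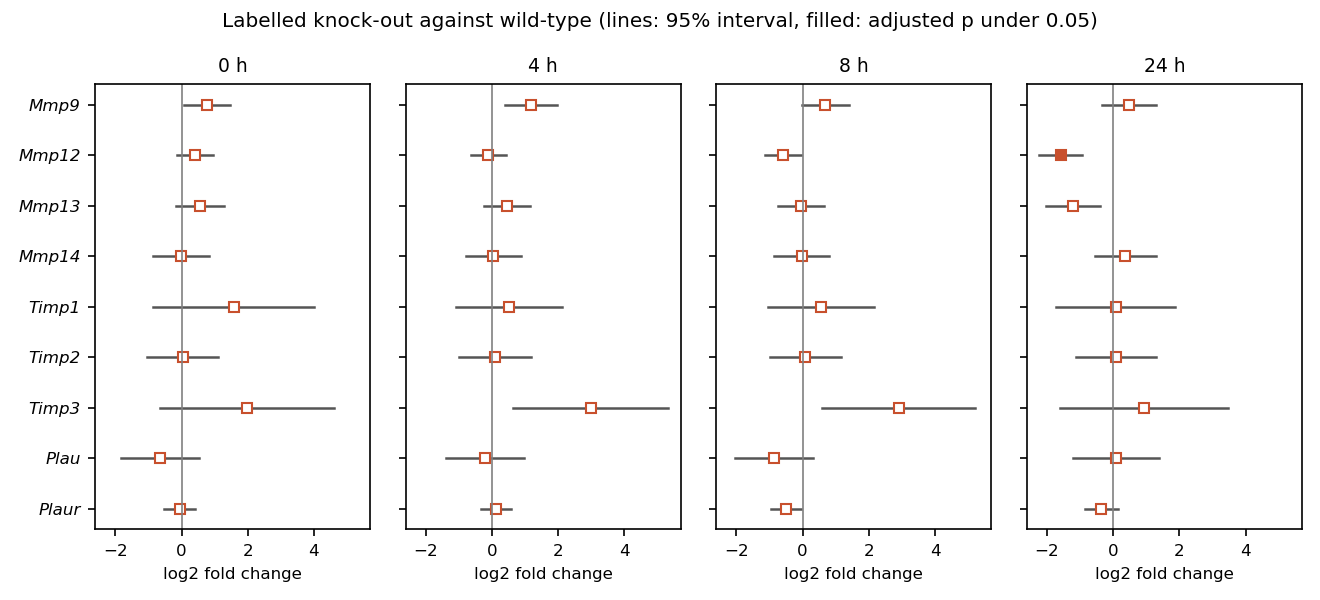
Log2 difference of each of the 9 genes between the labelled knock-out and wild-type at each time, with bars for the 95% interval. Mmp9 lies above 0 at each time, Mmp12 lies lowest at 24 h (-1.59), and Timp3 has the widest intervals.

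The second library set touched several members. Timp2 was lower in its library than in the mean of the others in 8 of the 8 groups, at 0.245 to 0.593 of that mean. Timp1 was lower in the 6 LPS-treated groups (0.187 to 0.352) and higher in both untreated ones (2.42 and 2.73). Mmp13 was lower in 7 of the 8 groups (0.374 to 0.78), the exception being untreated wild-type cells (1.25). Plau was higher in the 4 groups at 0 and 4 h, at 1.82 to 3.81 times the mean of the others, and lower at 24 h (0.378 and 0.536). In the 15 libraries of the first set alone, Plau at 8 h was higher than at 0 h, by 1.03 log2 units in wild-type (adjusted p = 5.42e-06) and 0.38 in the labelled knock-out (adjusted p = 0.0244), where the values over all libraries were below 0. At 24 h the first set holds 1 labelled knock-out library, number 22, whose Selenow was at 102% of wild-type, so values there are given without a test: Plau was at 0.55 against 0 h. The wild-type value at 24 h was -0.09 (adjusted p = 0.577). The difference of library 22 from the 2 wild-type libraries of the first set was -1.94 for Mmp12 at 24 h. The average difference of Timp3 between genotypes was 0.34 in the first set (adjusted p = 0.74). What sets these libraries apart was not tested.

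**Figure D5:**
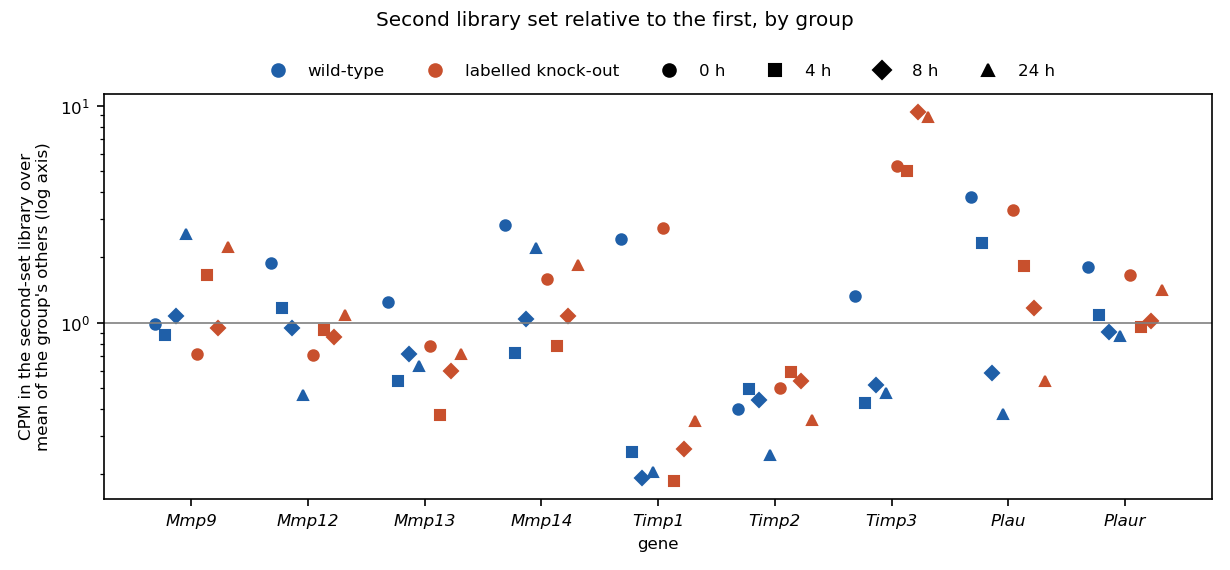
Level of each gene in the library of the second set divided by the mean of the other libraries of the same group, on a log axis, for the 8 groups. Timp2 is below 1 in all 8 groups, Timp1 is below 1 in the 6 LPS-treated groups and above 1 in both untreated ones, and Timp3 is at 5.0 to 9.33 in the 4 labelled knock-out groups.

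Other genes of the same system were described by lists. Among 10 tested metalloproteinases outside the 9 genes, 4 rose and 3 fell at 4 h in wild-type cells, 4 and 2 at 8 h, and 5 and 3 at 24 h, with median log2 fold changes of -0.02, 0.12 and 1.16. For these and the lists that follow, 62.9%, 65.4% and 55.1% of all genes were called at 4, 8 and 24 h in wild-type cells, 28.2%, 30.3% and 27.8% as higher. Mmp25, a glycolipid-anchored metalloproteinase of leukocytes, rose most at 4 and 8 h: it went from 0.6926, 0.775 and 1.63 CPM in untreated wild-type libraries to 188.1, 187.6 and 189 CPM at 4 h. The groups stood far apart, and the log2 fold change was 7.51 ± 0.28 at 4 h, 7.73 at 8 h and 4.16 at 24 h. The difference between 8 and 4 h was 0.22 ± 0.21 (adjusted p = 0.415). Mmp8, the neutrophil collagenase, was at 22.01, 36.96 and 15.24 CPM untreated and at 324.9, 299 and 120.3 CPM at 24 h in wild-type cells. It rose by 3.33 ± 0.44 log2 units there (adjusted p = 4.78e-06) and by 1.98 ± 0.45 in the labelled knock-out (adjusted p = 0.00155; 2.23 without libraries 13, 16, 19 and 22, adjusted p = 0.0176), while the summed neutrophil markers were at their lowest at 24 h. Mmp8 thus shared with Mmp12 a highest mean at 24 h, and so did Mmp10, Mmp19 and Mmp27 in both genotypes. Mmp27 had means of 17.77 CPM in wild-type and 13.71 CPM in the labelled knock-out there. Mmp10 was close to its 4 h level in the labelled knock-out (1.46 and 1.42 CPM). Mmp19 was close to its 8 h level in wild-type cells (45.66 and 43.89 CPM). Mmp11, stromelysin 3, fell at each time in wild-type cells, with log2 fold changes of -0.89, -1.41 and -1.46. It was also the one gene of this list called between genotypes at 0 h, where it was lower in the labelled knock-out (-0.67 ± 0.12, adjusted p = 0.00492). This was not called without libraries 13, 16, 19 and 22 (-0.68, adjusted p = 0.0785), in a fit of only the groups compared (adjusted p = 0.11) or against a fold of 1.5. Of 2 further genes tested, Reck and Pcolce, 0 rose and 1 fell at each time in wild-type cells. The fall was in Pcolce at 4 h and in Reck at 8 and 24 h, with all means under 1 CPM. Wild-type means at 0, 4, 8 and 24 h were 0.60, 0.69, 0.25 and 0.27 CPM for Reck. For Pcolce they were 0.30, 0.07, 0.38 and 0.43 CPM.

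In the plasminogen list, 16 genes were tested beside Plau and Plaur, and 6 rose and 5 fell at 4 h, 9 and 2 at 8 h, and 6 and 2 at 24 h in wild-type cells, beside 62.9%, 65.4% and 55.1% of all genes. Plasminogen itself, Plg, was too low to be tested. Serpinb2, which encodes an inhibitor of urokinase, rose by 7.37, 7.15 and 9.15 log2 units in wild-type cells, to 53.09 CPM at 24 h. Tissue plasminogen activator, Plat, had almost no reads in untreated cells and means of 9.967 CPM in wild-type and 12.79 CPM in the labelled knock-out at 4 h. Among surface partners of the receptor, the integrin gene Itgb3 fell (-1.73, -3.07 and -4.23) and Itgav rose by 2.04 log2 units at 4 h.

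Of 10 tested Adam and Adamts genes, which encode sheddases and proteoglycan-cleaving proteinases, 3 rose and 3 fell at 4 h, 6 and 3 at 8 h, and 3 and 3 at 24 h in wild-type cells, beside 62.9%, 65.4% and 55.1% of all genes called. Adam8 reached 3007 CPM at 24 h from 493.2 CPM untreated (2.61 log2 units). Of 12 tested cathepsins and cystatins, the lysosomal proteinases and their inhibitors, 5 rose and 0 fell at 4 h, 8 and 1 at 8 h, and 9 and 2 at 24 h, beside 28.2%, 30.3% and 27.8% of all genes called higher, with Ctsc at 2.92, 3.001 and 2.13. A list on activation of MMP14 and of proproteins held 9 tested genes, Mmp14 and Timp2 among them, of which 5 rose and 1 fell at 4 h, 6 and 2 at 8 h, and 5 and 2 at 24 h, beside the same shares of all genes. In it Cd44, the hyaluronan receptor that holds MMP14 at the cell front, rose by 3.08, 1.53 and 1.41 log2 units.

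Furin encodes the proprotein convertase that cleaves the MMP14 precursor, and it was the one gene of that list called between genotypes. Wild-type libraries held 146.4, 149.3 and 72.26 CPM of Furin untreated, 298.5, 302.7 and 332.9 CPM at 4 h, 222.5, 150.2 and 227.6 CPM at 8 h, and 89.04, 75.65 and 91.85 CPM at 24 h. The labelled knock-out held 179.1, 134.1 and 211.6 CPM untreated, 879.7, 726.4 and 975.6 CPM at 4 h, 506.8, 808.2 and 476.1 CPM at 8 h, and 182.2 and 179.7 CPM at 24 h. The genotypes overlapped at 0 h and were apart at 4, 8 and 24 h. Furin was higher in the labelled knock-out at 4 h (1.47 ± 0.25, adjusted p = 0.00231) and 8 h (1.58 ± 0.25, adjusted p = 0.000925). It was not called at 0 h (0.51, adjusted p = 0.42) or 24 h (1.08 ± 0.27, adjusted p = 0.0626), but DESeq2 (adjusted p = 0.0185), no filter (0.0347) and the library-set term (0.000247) called it at 24 h. The library-set term also called it at 0 h (0.56, adjusted p = 0.0155). Without libraries 13, 16, 19 and 22 the values were 1.45 at 4 h (adjusted p = 0.0367) and 1.68 at 8 h (adjusted p = 0.0102), and 1.07 at 24 h (adjusted p = 0.502). The differences between its response to LPS in the genotypes were not called at 4 h (0.95, adjusted p = 1), 8 h (1.07, adjusted p = 0.256) or 24 h (0.57, adjusted p = 0.615). Those at 4 and 8 h were called with the library-set term (adjusted p = 0.0457 and 0.00645) and in the first library set (adjusted p = 0.00986 and 0.0091), and not without libraries 13, 16, 19 and 22 (adjusted p = 1 and 0.862). The sets were found in these same data, so calls that use them add no support. Mmp14, whose product Furin cleaves, was not called between genotypes at any time.

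The genes whose level ran most like each member were found as the 3 highest Pearson correlations of log2 CPM over the 23 libraries among 9338 genes with a mean of at least 5 CPM. The points share groups and library sets, so the values are descriptions. Mmp13 ran most like Trim30b (r = 0.986), Lilrb4a (0.984) and Trim30d (0.982). Mmp14 was closest to Tarm1 (0.992), Ifi35 (0.989) and Mir147 (0.988), and Mmp12 to Lpp (0.932), Hspa4l (0.927) and Tgds (0.92). Mmp9 was closest to Cul7 (0.931), Palm (0.915) and Tmem110 (0.872). Among the inhibitors, Timp1 ran with Acp5 (0.972), Mefv (0.969) and Hif1a (0.969), and Timp2 with Hexa (0.973), Syngr1 (0.97) and Tmem202 (0.97). Timp3 had no close match, its highest being Mtrex (0.733), Ptpn11 (0.656) and Utp11 (0.651). Plaur was matched by Coq10b (0.989), Gcnt2 (0.988) and Abtb2 (0.985), and Plau less closely by Cnot9 (0.88), Tmx4 (0.87) and Fen1 (0.84).

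Among the members themselves, Mmp13 and Timp1 had the highest correlation over the 23 libraries (0.965), and their deviations from the group means also ran together (0.788). Mmp13 and Plaur (0.956), and Mmp14 and Timp1 (0.943), were as close over all libraries, but not in their deviations from the group means (0.0447 and 0.0896). Timp1 and Timp2 ran against each other over the libraries (-0.521) and with each other in their deviations from the group means (0.591). The same held for Mmp13 and Timp2 (-0.571 and 0.651) and for Plau and Plaur (-0.395 and 0.692). The deviations pool all 8 groups, and single groups went the other way. Untreated, the second-set library stood at 2.42 and 2.73 times the mean of the others for Timp1, and at 0.398 and 0.499 for Timp2. Mmp13 and Timp2 were opposite in untreated wild-type cells (1.25 and 0.398). Plau and Plaur were opposite in the labelled knock-out at 4 h (1.82 and 0.955) and 24 h (0.536 and 1.42).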

How the data were processed

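The authors deposited unnormalized counts, the number of 100 bp read pairs over the exons of a gene, made with HISAT2 (version not given in the sources used here) and featureCounts 2.0.1, on GRCm38 with Ensembl release 101, per the submitters' processing notes and the file headers. Counting ignored strand, gave a pair that overlaps several genes to all of them and left out pairs with several alignments, per the file headers. Total RNA was isolated with a column kit and DNase, per the labels' protocols. GENCODE mouse release 21 gave symbols to 55141 of 55401 identifiers and none to 260.

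All libraries entered one fit of 8 group means in edgeR 4.0.16 (R 4.3.3) with TMM scaling, filterByExpr and the quasi-likelihood F-test, two-sided, over 18 comparisons. P-values were adjusted by Benjamini-Hochberg over 18083 genes within a comparison. SE was computed as the absolute unshrunk log2 fold change over the root of F, and intervals are 95%. A count of 0 allows up to 3 counts, 0.0537 to 0.0926 CPM per library, covering counting error only. For correlations, log2 CPM had 2 as prior count. Motifs were searched with Python 3.11.15. The test was tried on simulated data with known changes.

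The 9 members and the lists were chosen with earlier results of these data known. All 9 are named in each comparison, and of each of 6 pathway lists up to 6 called genes with the largest change and a mean of at least 5 CPM could be named, of which part are printed; 1 gene is not reported here. Plat and Plg, and Furin where it was not called, were named for their role after values were seen. Marker lists of 8 cell types were used whole. The osteoclast list summed to 47.53 to 99.81 CPM per library, endothelial to 8.616 to 126.4, dendritic to 1.235 to 43.39, B cell to at most 2.505 and T and NK cell to at most 1.218. Alternatives were DESeq2 1.42.0, limma-voom (limma 3.58.1), RLE and upper-quartile scaling, a threshold of 0.01, a test against a fold of 1.5, no filter or one of 1 CPM in 3 libraries, leaving out each library, fitting only the groups compared, leaving out libraries 13, 16, 19 and 22, and a term for the library set. Fits within each library set were added after seeing the data.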

Additional observations from a re-analysis of the deposited data

How the results depend on the processing

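No paired analysis was possible because no running number occurs in more than 1 group; the library sets, which were found in the data and pair libraries across genotypes at each time, were fitted as a term instead. Of 162 results (9 genes in 18 comparisons), 156 kept their side of the threshold with DESeq2, 156 with limma-voom, 160 with RLE, 161 with upper-quartile scaling and 149 without libraries 13, 16, 19 and 22. Direction was compared only where either fit called the gene. Fits within the first library set reversed 3, all of Plau: 1.03 for wild-type 8 h against 0 h, and 0.38 and 0.55 for the labelled knock-out at 8 and 24 h, the last from library 22 alone. The cause was not tested. The number of members called depended on the setting as follows. Wild-type 8 h against 4 h (4 called) gave 1 at an adjusted p under 0.01, 1 against a fold of 1.5, 7 in the first set and 1 to 5 leaving out single libraries. Wild-type 24 h against 8 h (2) gave 6 with a library-set term and 5 in the first set, with 2 to 3 leaving out single libraries. Labelled knock-out 8 h against 4 h (4) gave 1 at 0.01, 1 against a fold of 1.5, 1 without libraries 13, 16, 19 and 22, 8 with the set term, 8 in the first set and 1 to 5 leaving out single libraries. Its 24 h against 8 h (2) gave 5 with the set term and 1 to 4 leaving out single libraries. Between genotypes at 0 h (0) the set term gave 3 and the first set 4. At 4 h (0), 1 was called without the 4 libraries, 1 with the set term and 1 in the first set. At 8 h (0), the values were 1 for only the groups compared, 1 without the 4 libraries, 4 with the set term and 3 in the first set. At 24 h (1), they were 0 against a fold of 1.5, 0 for only the groups compared, 3 with the set term and 0 to 1 leaving out single libraries. On average over times (3), limma-voom gave 1, the threshold of 0.01 gave 0, a fold of 1.5 gave 0, the set term 7 and leaving out single libraries 0 to 3, with 0 without library 23. For the interaction, at 4 h (0) the first set gave 1. At 8 h (0) the set term gave 1 and the first set 3. At 24 h (0) DESeq2 gave 1, no filter 1, the set term 3 and leaving out single libraries 0 to 1. For the labelled knock-out at 24 h, the first set and the fit without the 4 libraries hold 1 library, and their counts are not given. The set term and first-set fits leave less spread between libraries by construction. Over all genes, the set term raised the share called between genotypes from 1.52% to 13.6% at 0 h, 1.24% to 4.66% at 4 h, 2.2% to 16.2% at 8 h, 1.19% to 19.5% at 24 h and 6.27% to 23.9% on average, and DESeq2 gave 3.03%, 3.65% and 2.41% at 0, 8 and 24 h. Upper-quartile scaling moved the median of all genes in wild-type cells at 4 h from -0.123 to -0.162. Depth limits Timp3, with 6 to 460 counts per library, and Timp1 in untreated cells.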
